A study of Bos taurus with 18 samples.

Results

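The small nuclear and structural RNAs of rumen papillae were followed here as single gene copies, each copy being 1 Ensembl identifier. The members were selected on their gene name and on a measured value, the read total of a row over all 18 libraries, which had to reach 100. The 12 names asked for were U1, U2, U4, U5, U6, U6atac, U4atac, 7SK, Y_RNA, 5S_rRNA, 5_8S_rRNA and Metazoa_SRP. They covered 1630 rows of a table of 27270 genes, and 293 of those rows reached the total. The total uses no group labels, but it adds raw counts of the libraries compared below, and the forage libraries, which had more reads, weigh more in it. The last rows inside the limit had 100 to 102 reads, as in the U6 row ENSBTAG00000042323 with 100, and the first rows outside had 98 or 99. Members were found for 10 of the 12 names, since the table had 0 rows named U6atac or U4atac.

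Papillae, the finger-like folds that line the rumen and absorb fermentation acids, were biopsied from 9 rumen-cannulated, dry Holstein cows. Of these cows 4 were given a supplement labelled PHY and 5 were controls. Each cow ate a diet of 100% forage first and a high-grain diet with 65% concentrate later, which gave the groups grain_PHY (n = 4), grain_control (n = 5), forage_PHY (n = 4) and forage_control (n = 5). What PHY stands for, and whether cows had received it by the time of the forage biopsy, is not in the labels. Libraries cannot be assigned to cows, so those of the same cow were treated as independent, and library numbers only follow the order of deposit.

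These RNAs are not messengers. U1, U2, U4, U5 and U6 form the cores of the spliceosome: U1 pairs with the start of an intron, U2 with its branch point, U4 holds U6 inactive until splicing begins, and U5 aligns the exons. The 7SK RNA keeps the transcription elongation factor P-TEFb in an inactive store, Y RNAs bind the Ro and La proteins, and the RNA named Metazoa_SRP in the table is the scaffold of the signal recognition particle, which brings ribosomes making secreted proteins to the endoplasmic reticulum. 5S and 5_8S ribosomal RNA belong to the large ribosomal subunit. RNA polymerase II makes U1, U2, U4 and U5. RNA polymerase III makes U6, 7SK, Y RNA, 5S and the signal recognition particle RNA. Mammalian genomes carry many copies and pseudogene relatives of all of these families.

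The classes differed in how their reads were spread over copies. The U6 class was the most divided, with 111 members of which the leading copy held 4.44% of the class's reads, and 93 copies were needed to reach 90 percent of them. The 70 members named 5S_rRNA needed 31 copies for that share, and the leading one held 33.6%. The U1 class had 29 members with 42.2% of reads on the leading copy, U2 had 20 with 48.1%, U5 had 7 with 47.3% and U4 had 3 with 60.6%. The other classes were close to single genes. The leading copy held 88.6% of reads among 7 Y_RNA members, 93.1% among 17 Metazoa_SRP members and 99.3% among 28 members named 7SK, and 5_8S_rRNA had 1 member. The rows left out below the limit held 57.0% of all reads named U6 and 14.4% of those named 5S_rRNA, against 0.379% of those named 7SK. No 2 members had the same counts in every library, with 0 such pairs. Whether reads that match several copies were shared, dropped or assigned to 1 copy is not given in the sources used here, and neither is the strand setting, so the split of reads among near-identical copies is uncertain and the class sums are given beside the copies.

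Library totals lay between 3953060 and 34471682 reads. The 3 smallest libraries were grain_PHY 1, grain_control 1 and grain_control 4, all on grain. The members took 3.74% to 7.25% of reads in grain_PHY, 3.75% to 7.26% in grain_control, 3.28% to 4.16% in forage_PHY and 2.55% to 3.57% in forage_control libraries. The 5_8S_rRNA row was most of that in all libraries but grain_PHY 1. Without it the shares were 0.933% to 4.02% in grain_PHY, 1.19% to 2.55% in grain_control, 0.801% to 1.11% in forage_PHY and 0.614% to 1.32% in forage_control. The summed level of 144 olfactory receptor genes, a family used mainly by the nose, moved with the diet as well. It was 42.1 to 345 CPM (reads scaled to a common library size) in grain_PHY, 32.9 to 169 CPM in grain_control, 20.8 to 32.2 CPM in forage_PHY and 16.3 to 65.0 CPM in forage_control. Of 13 rumen epithelium markers 12 were in the table and none of these was at 0. Of the 12, CRNN and DSG1 were called as higher on grain (1.64 ± 0.35 and 0.89 ± 0.33 on the log2 scale, adjusted p = 0.0201 and 0.0433) and TP63 and DSP as lower (−0.65 ± 0.22 and −0.86 ± 0.28, adjusted p = 0.0329 and 0.0302). Their summed level was 5370 to 19280 CPM in grain_PHY, 7311 to 21430 CPM in grain_control, 19930 to 21840 CPM in forage_PHY and 13400 to 27430 CPM in forage_control. Markers of other cell types rose in part: 5 of 11 T and NK cell, 4 of 8 myeloid, 3 of 6 red blood cell and 1 of 7 B and plasma cell genes tested were called as higher on grain, and 0 of 6 endothelial and 0 of 10 fibroblast and muscle genes. None of these markers was at 0. Of all genes tested 18.1% were called as higher on grain. At a mean log2 CPM of 0 to 2 it was 38.1%, beside 3 of 7 T and NK cell and 2 of 3 myeloid markers. At 2 to 4 it was 11.5%, beside 1 of 3 T and NK cell and 2 of 5 myeloid markers. With the olfactory receptor level as a covariate no marker was called. The T and NK cell median log2 fold change was then −0.01, against 1.18 without the covariate. The summed T and NK cell level was 27.8 to 48.4 CPM in grain_PHY, 24.5 to 58.0 CPM in grain_control, 20.2 to 29.1 CPM in forage_PHY and 21.6 to 32.8 CPM in forage_control. The summed myeloid level was 54.6 to 72.1 CPM in grain_PHY, 46.0 to 66.5 CPM in grain_control, 39.03 to 55.1 CPM in forage_PHY and 38.8 to 51.0 CPM in forage_control. The summed red blood cell level was 4.62 to 22.1 CPM in grain_PHY, 5.52 to 19.0 CPM in grain_control, 1.81 to 5.04 CPM in forage_PHY and 1.47 to 8.25 CPM in forage_control. Fewer cells of a type and less RNA per cell cannot be told apart in such bulk samples. The part of depth, of the olfactory receptor level and of cell makeup in the results was not tested, beyond the fits given below.

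The summed levels of 8 of the 10 classes had a higher geometric mean on grain than on forage. Levels are CPM scaled by edgeR's effective library sizes, and no class had grain and forage libraries fully apart. The U1 sum was 770, 509, 186 and 334 CPM in grain_PHY and 460, 883, 271, 208 and 503 CPM in grain_control libraries. It was 194, 303, 202 and 278 CPM in forage_PHY and 205, 139, 149, 356 and 167 CPM in forage_control libraries. Thus 8 of 9 grain libraries lay above the forage median. Within the forage range were grain_PHY 3, grain_PHY 4, grain_control 3 and grain_control 4. The ratio of grain to forage, from geometric means over both arms, was 1.88 for U1, 1.91 for U2, 1.92 for U4, 2.59 for U5, 1.81 for U6, 1.93 for 5S_rRNA, 1.76 for Y_RNA and 1.48 for Metazoa_SRP. The ratios of 5_8S_rRNA and 7SK were 0.999 and 0.681. For U5, Y_RNA and 5S_rRNA all 9 grain libraries lay above the forage median, whereas for 7SK 3 of 9 did. The library with the highest sum was grain_control 2 for 4 classes, grain_PHY 1 for 3, grain_PHY 2 for 2 and forage_control 4 for 1. The lowest sum was in forage_control 2 for 4 classes, in forage_control 5 for 4 and in grain_PHY 1 for 7SK and 5_8S_rRNA.

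**Figure D1:**
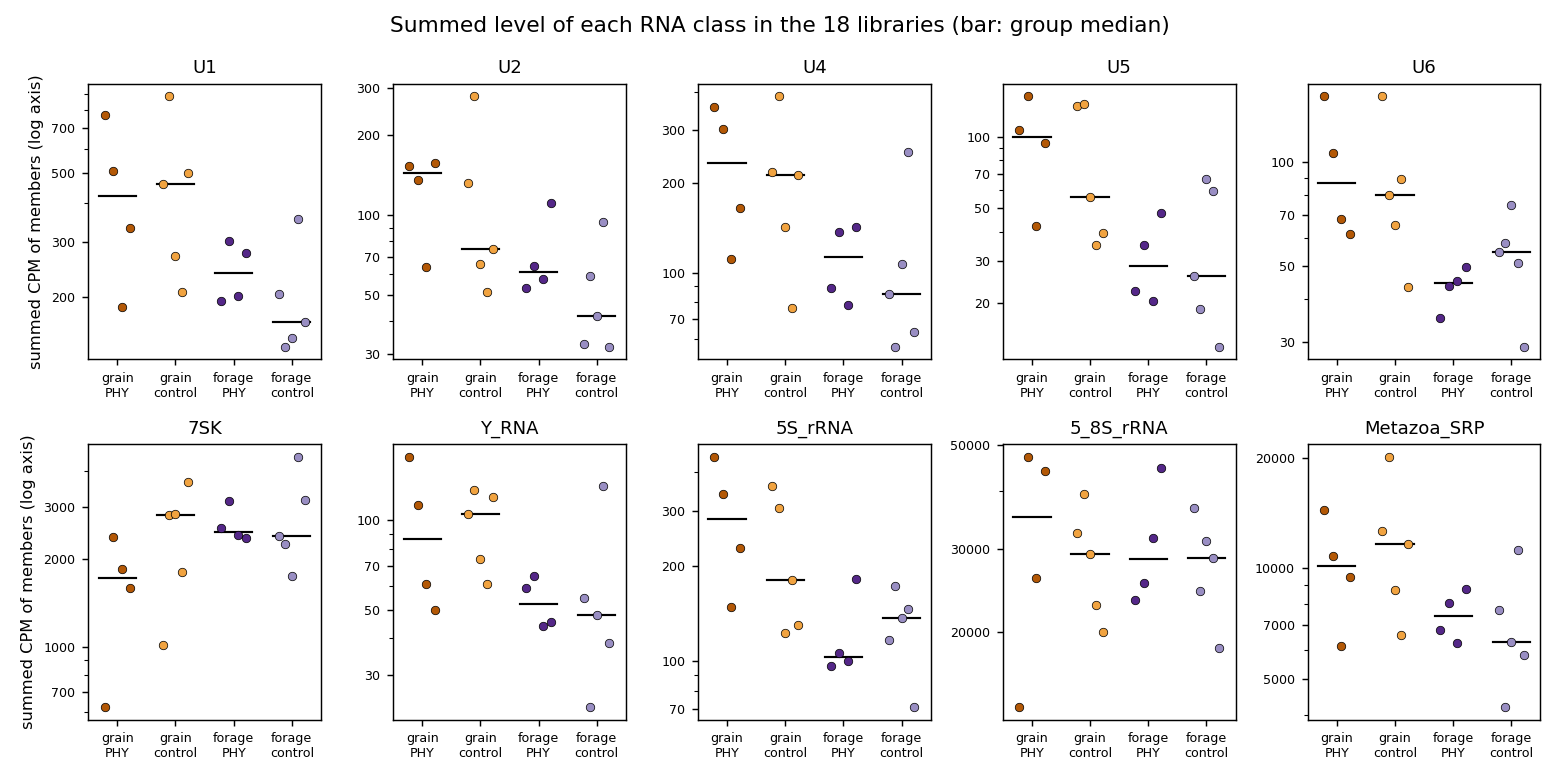
Summed CPM of the members of each class (log axis) in every library, by group, with a bar at the group median. Grain libraries sit above most forage libraries for U1, U2, U4, U5, U6, Y_RNA, 5S_rRNA and Metazoa_SRP with overlap in every class, while 7SK is lowest in the grain library grain_PHY 1 at 621 CPM.

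Grain was compared with forage over both arms by edgeR's quasi-likelihood test on all genes, and a gene was called at an adjusted p under 0.05. Of the 293 members 275 passed the filter on low counts and were tested. Of these, 79 rose and 1 fell, the U6 copy ENSBTAG00000044568. Over all 22202 genes tested, 31.9% were called, 18.1% as higher and 13.8% as lower on grain. The members' share of rises was 28.7%. Their median log2 fold change was 0.98, with 247 of 275 above 0, against a median of 0.20 over all genes. Adjusted p-values of the called members lay between 0.0201 and 0.0497. No member had all 9 grain libraries above all 9 forage libraries, with 0 of 275, while 0.054% of all genes did. Counts over members that passed the filter describe those copies only.

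The diet response of all genes differed with their level, so the members are set beside genes of like level. Among genes with a mean log2 CPM under 0, 19.9% rose, and 29 of 170 members did, with medians of 1.06 for members and 1.41 for all genes. Between 0 and 2, 38.1% of genes rose and 21 of 64 members did, with medians of 0.92 and 1.16. The members' shares of 17.1% and 32.8% in these bands, which hold all tested U6 copies, were near those of all genes of like level. From 2 upwards the picture differed. Between 2 and 4, 16 of 21 members rose against 11.5% of all genes, with medians of 0.98 and −0.12. Between 4 and 6, 7 of 10 members rose against 0.98% of all genes, and 1728 of the 4284 genes in that band fell, with medians of 0.85 and −0.41. Above 6, 6 of 10 members rose against 1.22% of all genes, and 676 of 1312 genes fell, with medians of 0.79 and −0.55. The 41 copies with a mean log2 CPM above 2 thus held 29 of the 79 rises, in U1 (8 of 10 such copies), U2 (4 of 6), U4 (2 of 2), U5 (3 of 3), Y_RNA (1 of 1), 5S_rRNA (5 of 7) and Metazoa_SRP (6 of 10).

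**Figure D2:**
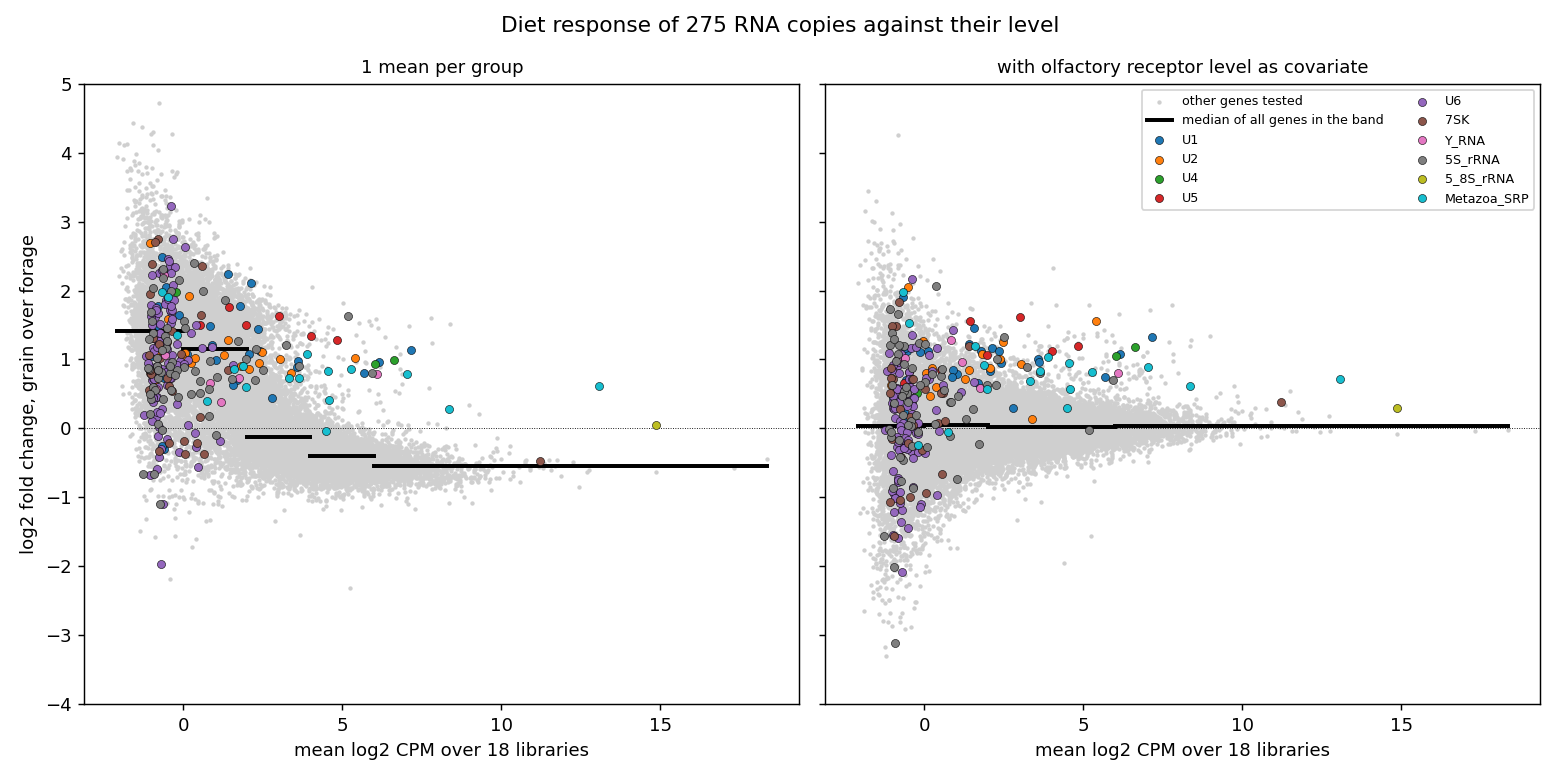
Log2 fold change of grain over forage against mean log2 CPM for all genes tested (grey) and the 275 tested copies (coloured by class), with black bars at the median of all genes in each level band. In the fit with 1 mean per group the bars fall to −0.55 at the highest levels while most copies above a log2 CPM of 2 stay above 0, and with the olfactory receptor covariate the bars lie near 0 and 40 of those 41 copies are above 0. Outside the plotted range lie 2 genes in the first panel and 3 in the second, none of them a copy.

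The calls depended on the fit, and the size of change in the more abundant copies was lower with voom than in the other fits given here. With the log2 olfactory receptor level as a covariate 0 of 275 members were called (smallest adjusted p = 0.999), and 33 had an unadjusted p under 0.05. Over all 22202 genes 0 were called as well, and 1032 had an unadjusted p under 0.05. In that fit the median of all genes was 0.03 and that of the members 0.52. The 41 copies above a log2 CPM of 2 kept a median of 0.89 there, against 0.91 without the covariate, and 40 of 41 were above 0. Genes of like level had a median of 0.02 in that fit, against −0.31 without it. Without the 3 smallest libraries 0 members and 0 of all 21258 genes tested were called (smallest adjusted p of a member 0.177). The same 41 copies had a median of 0.88 against −0.14 for genes of like level. Without grain_PHY 1 alone the count was also 0, with 97 members at an unadjusted p under 0.05, a smallest adjusted p of 0.0616 and a median of 0.84 for the 41 copies. In that fit 1 of all 22202 genes was called, and 7959 had an unadjusted p under 0.05, a share like that of the members. DESeq2 called 126 of the 293 members, among them 32 of the 41 copies, and 40 of 41 were above 0. Of the 275 members tested by edgeR it called 123 as higher, beside 6142 of 22202 genes. Limma voom with sample quality weights called 76 members, but the median of the 41 copies was 0.55 and 14 of them were called, against 29 in edgeR's test. Genes of like level had a median of −0.27 with voom. Voom called 75 of 275 members as higher, beside 5785 of 22202 genes, which is a similar share.

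U1 had 17 of 29 tested copies called as higher on grain, beside 18.1% of all genes, with a median log2 fold change of 1.09. Above a log2 CPM of 2 it was 8 of 10 copies, and the rest lay where 19.9% to 38.1% of all genes rose. The leading copy, ENSBTAG00000049660, had 325, 217, 71.1 and 156 CPM in grain_PHY and 178, 373, 114, 88.3 and 247 CPM in grain_control libraries. It had 71.8, 136, 80.4 and 107 CPM in forage_PHY and 83.4, 43.6, 54.7, 149 and 71.9 CPM in forage_control libraries. Of the grain libraries 6 lay above every forage library, and grain_PHY 3, grain_control 3 and grain_control 4 lay inside the forage range. Its mean was 197 ± 104 CPM on grain and 88.6 ± 35.5 CPM on forage (SD, n = 9 each), a log2 fold change of 1.14 ± 0.30 (SE, adjusted p = 0.0216). The next copies by reads, ENSBTAG00000055182 and ENSBTAG00000051291, changed by 0.96 ± 0.30 (adjusted p = 0.0258) and 0.80 ± 0.29 (adjusted p = 0.0398) on the log2 scale. Among called copies averaging at least 5 CPM on 1 of the diets, the largest rise was at the less abundant U1 copy ENSBTAG00000052379. It had 9.64, 9.56, 3.67 and 6.19 CPM in grain_PHY and 15.7, 7.45, 4.30, 4.4 and 0.935 CPM in grain_control libraries. It had 0.919, 1.18, 0.720 and 1.98 CPM in forage_PHY and 2.04, 1.43, 5.2, 1.64 and 0.517 CPM in forage_control libraries. Grain_control 5 was low and forage_control 3 high against the rest of their diets, and 5 of 9 grain libraries lay above every forage library. The log2 fold change was 2.10 ± 0.43 (adjusted p = 0.0201), and with the olfactory receptor covariate 1.17 ± 0.52. The U1 copy ENSBTAG00000037206 had the next largest rise by that rule, at 1.78 ± 0.41 (adjusted p = 0.0202) and was low and high in the same pair of libraries.

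U2 had 7 of 19 tested copies called, beside 18.1% of all genes called as higher, with all 19 fold changes above 0 and a median of 1.04. Above a log2 CPM of 2 it was 4 of 6 copies, and the rest lay where 19.9% to 38.1% of all genes rose. Its leading copy is described further down, since 4 libraries had almost none of its reads. The sum of the other U2 copies was 68.1 ± 33.4 CPM on grain and 32.6 ± 10.2 CPM on forage (SD, n = 9 each). ENSBTAG00000053925 rose with a log2 fold change of 1.01 ± 0.31 (adjusted p = 0.0273). Its level was 14.5, 15.3, 5.23 and 15.3 CPM in grain_PHY and 18.1, 16.3, 3.73, 4.33 and 5.47 CPM in grain_control libraries. It was 4.31, 5.92, 4.60 and 8.63 CPM in forage_PHY and 4.23, 4.12, 4.00, 9.28 and 3.39 CPM in forage_control libraries. Of the grain libraries 5 stood above every forage library, and the other 4 were at forage levels. ENSBTAG00000049920 did not pass the test, with 0.81 ± 0.48 (adjusted p = 0.173).

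All 3 members of U4 rose, beside 18.1% of all genes, with a median log2 fold change of 0.99. The leading copy, ENSBTAG00000050288, had 210, 182, 65.6 and 94.5 CPM in grain_PHY and 125, 248, 91.8, 43.5 and 132 CPM in grain_control libraries. It had 51.9, 81.1, 44.4 and 85.3 CPM in forage_PHY and 53.1, 34.5, 64.7, 153 and 37.3 CPM in forage_control libraries. Forage_control 4 was above 6 of the 9 grain libraries. The diets also overlapped in other libraries, as forage_PHY 2 and forage_PHY 4 were above grain_PHY 3 and grain_control 4. The log2 fold change was 0.99 ± 0.32 (adjusted p = 0.0316), close to that of ENSBTAG00000054016 at 0.94 ± 0.31 (adjusted p = 0.0323). The third copy, ENSBTAG00000045043, had 190 reads in all, and its rise of 1.98 ± 0.64 (adjusted p = 0.0292) was 0.51 ± 0.65 with the olfactory receptor covariate.

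U5 had the highest class median, 1.5 on the log2 scale, with 6 of 7 copies called, beside 18.1% of all genes called as higher. Of these calls 3 were in the 3 copies above a log2 CPM of 2. The leading copy, ENSBTAG00000042956, had 44.2, 65.0, 20.7 and 44.6 CPM in grain_PHY and 56.2, 66.9, 27.2, 17.0 and 18.7 CPM in grain_control libraries. It had 10.4, 15.6, 8.69 and 23.7 CPM in forage_PHY and 12.2, 10.2, 34.9, 31.2 and 5.33 CPM in forage_control libraries. Forage_control 3 and forage_control 4 were high for their diet, and all 9 grain libraries were above the forage median. The means were 40.1 ± 19.9 CPM on grain and 16.9 ± 10.5 CPM on forage (SD, n = 9 each), a log2 fold change of 1.28 ± 0.38 (adjusted p = 0.0264). ENSBTAG00000042506 changed by 1.35 ± 0.37 (adjusted p = 0.0228). ENSBTAG00000049706 changed by 1.63 ± 0.44 (adjusted p = 0.0226) and by 1.61 ± 0.69 with the covariate.

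U6 had 17 of 100 tested copies called as higher and 1 as lower, with a median of 1.09 that became 0.24 with the olfactory receptor covariate, when 57 of 100 were above 0. No U6 copy reached a mean log2 CPM of 2. Of all genes 19.9% rose under 0 and 38.1% between 0 and 2, so the U6 share of rises was not above that of genes of like level. The copy with the most reads, ENSBTAG00000050600, averaged 3.78 ± 2.63 CPM on grain and 2.02 ± 1.04 CPM on forage (SD, n = 9 each) and did not pass the test (0.91 ± 0.39, adjusted p = 0.065). ENSBTAG00000044904 gave −0.18 ± 0.36 (adjusted p = 0.687), and ENSBTAG00000050779 rose by 1.19 ± 0.42 on the log2 scale (adjusted p = 0.037). The single fall was at ENSBTAG00000044568. It had 2, 0, 2 and 1 reads in grain_PHY and 0, 1, 6, 8 and 13 reads in grain_control libraries. It had 25, 11, 9 and 19 reads in forage_PHY and 13, 8, 18, 11 and 22 reads in forage_control libraries. Every grain library was below the forage median in CPM, and the log2 fold change was −1.97 ± 0.69 (adjusted p = 0.0373). These counts are small, and all 4 grain_PHY libraries had fewer reads in total than any forage library.

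In the 7SK class the leading copy was lower and the sum of the other copies higher on grain by their means, and neither the leading copy nor most of the others passed the test. The leading copy, ENSBTAG00000043250, with 862058 reads, had 574, 2346, 1820 and 1573 CPM in grain_PHY and 976, 2806, 2833, 1777 and 3638 CPM in grain_control libraries. It had 2528, 3138, 2396 and 2331 CPM in forage_PHY and 2374, 2226, 1721, 4450 and 3177 CPM in forage_control libraries. The shallow libraries grain_PHY 1 and grain_control 1 were the lowest of all, and forage_control 4 the highest. The log2 fold change of −0.47 ± 0.28 did not pass the test (adjusted p = 0.173), and its sign turned to 0.38 ± 0.20 with the olfactory receptor covariate. The sum of the other 27 copies was 26.7 ± 10.2 CPM on grain and 15.6 ± 4.22 CPM on forage (SD, n = 9 each). Of the 28 copies 4 were called, all higher on grain, 21 of 28 were above 0 and the median was 0.83, which became 0.23 with the covariate. The other copies all had low levels, and their share of rises was not above the 19.9% and 38.1% of all genes below a log2 CPM of 2. The leading copy's share of the class was 92.4% to 99.5% of reads on grain and 98.6% to 99.7% on forage. ENSBTAG00000042601 gave 0.85 ± 0.34 (adjusted p = 0.0555) and ENSBTAG00000045086 gave −0.37 ± 0.46 (adjusted p = 0.499), and neither passed.

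Of the 7 Y_RNA copies 2 were called, beside 18.1% of all genes called as higher, with all 7 fold changes above 0 and a median of 0.73. The called copies included the leading one, the only copy above a log2 CPM of 2. The rest lay where 19.9% to 38.1% of all genes rose. The leading copy, ENSBTAG00000043461, had 146, 99.7, 55.4 and 43.6 CPM in grain_PHY and 91.5, 114, 64.8, 54.6 and 105 CPM in grain_control libraries. It had 52.5, 57.3, 40.1 and 38.7 CPM in forage_PHY and 49.6, 20.9, 42.7, 114 and 33.2 CPM in forage_control libraries. All 9 grain libraries were above the forage median, but only grain_PHY 1 was above forage_control 4. It rose by 0.80 ± 0.27 on the log2 scale (adjusted p = 0.0344). ENSBTAG00000043086 and ENSBTAG00000043936 gave 0.73 ± 0.36 (adjusted p = 0.106) and 0.38 ± 0.41 (adjusted p = 0.443).

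The signal recognition particle RNA had 10 of 17 copies called, beside 18.1% of all genes called as higher, with a median of 0.78. Above a log2 CPM of 2 it was 6 of 10 copies. Its leading copy, ENSBTAG00000049916, was not among those called. It had 13600, 10090, 5750 and 8868 CPM in grain_PHY and 11700, 18920, 8187, 6197 and 10740 CPM in grain_control libraries. It had 6258, 7458, 5782 and 8262 CPM in forage_PHY and 7135, 3906, 5938, 10520 and 5245 CPM in forage_control libraries. Of the grain libraries 4 were above every forage library and 2 were below the forage median, and the log2 fold change was 0.62 ± 0.27 (adjusted p = 0.0699). DESeq2 called this copy. ENSBTAG00000055172 gave 0.28 ± 0.23 (adjusted p = 0.319), and ENSBTAG00000047789 rose by 0.78 ± 0.29 on the log2 scale (adjusted p = 0.0417).

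Of 64 tested 5S_rRNA copies 13 rose, with a median of 0.87, a share near the 18.1% of all genes. With the olfactory receptor covariate the median was 0.46 and 45 of 64 copies were above 0. The leading copy, ENSBTAG00000028443, had 84.3, 116, 46.8 and 78.0 CPM in grain_PHY and 122, 117, 33.02, 41.4 and 54.2 CPM in grain_control libraries. It had 37.1, 33.6, 34.5 and 69.8 CPM in forage_PHY and 52.0, 34.8, 47.2, 59.2 and 29.4 CPM in forage_control libraries. Of the grain libraries 5 were above every forage library, and forage_PHY 4 stood apart from the other 3 libraries of its group. The log2 fold change was 0.81 ± 0.25 (adjusted p = 0.0269), and ENSBTAG00000035041 rose by 0.91 ± 0.23 on the same scale (adjusted p = 0.021). ENSBTAG00000050043 had 200, 48.7, 26.7 and 28.2 CPM in grain_PHY and 56.0, 42.6, 22.8, 46.1 and 14.7 CPM in grain_control libraries. It had 9.98, 10.1, 10.9 and 22.5 CPM in forage_PHY and 5.13, 71.5, 19.9, 5.03 and 6.72 CPM in forage_control libraries. The highest grain value was in the shallowest library, grain_PHY 1, and forage_control 2 was above all grain libraries but that one. Its rise of 1.63 ± 0.56 (adjusted p = 0.0386) became −0.02 ± 0.45 with the olfactory receptor covariate.

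The single 5_8S_rRNA row, ENSBTAG00000048608, held 9388167 reads and showed no call. It had 13850, 47220, 26110 and 44090 CPM in grain_PHY and 32480, 39460, 29400, 22850 and 20020 CPM in grain_control libraries. It had 23400, 25510, 31680 and 44740 CPM in forage_PHY and 36850, 24530, 31350, 28740 and 18560 CPM in forage_control libraries. Both the lowest and the highest values were in grain_PHY, and 5 of 9 grain libraries were above the forage median. The log2 fold change was 0.05 ± 0.27 (adjusted p = 0.875), and its sign turned in some fits. How completely ribosomal RNA was removed during library making is not given in the sources used here.

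**Figure D3:**
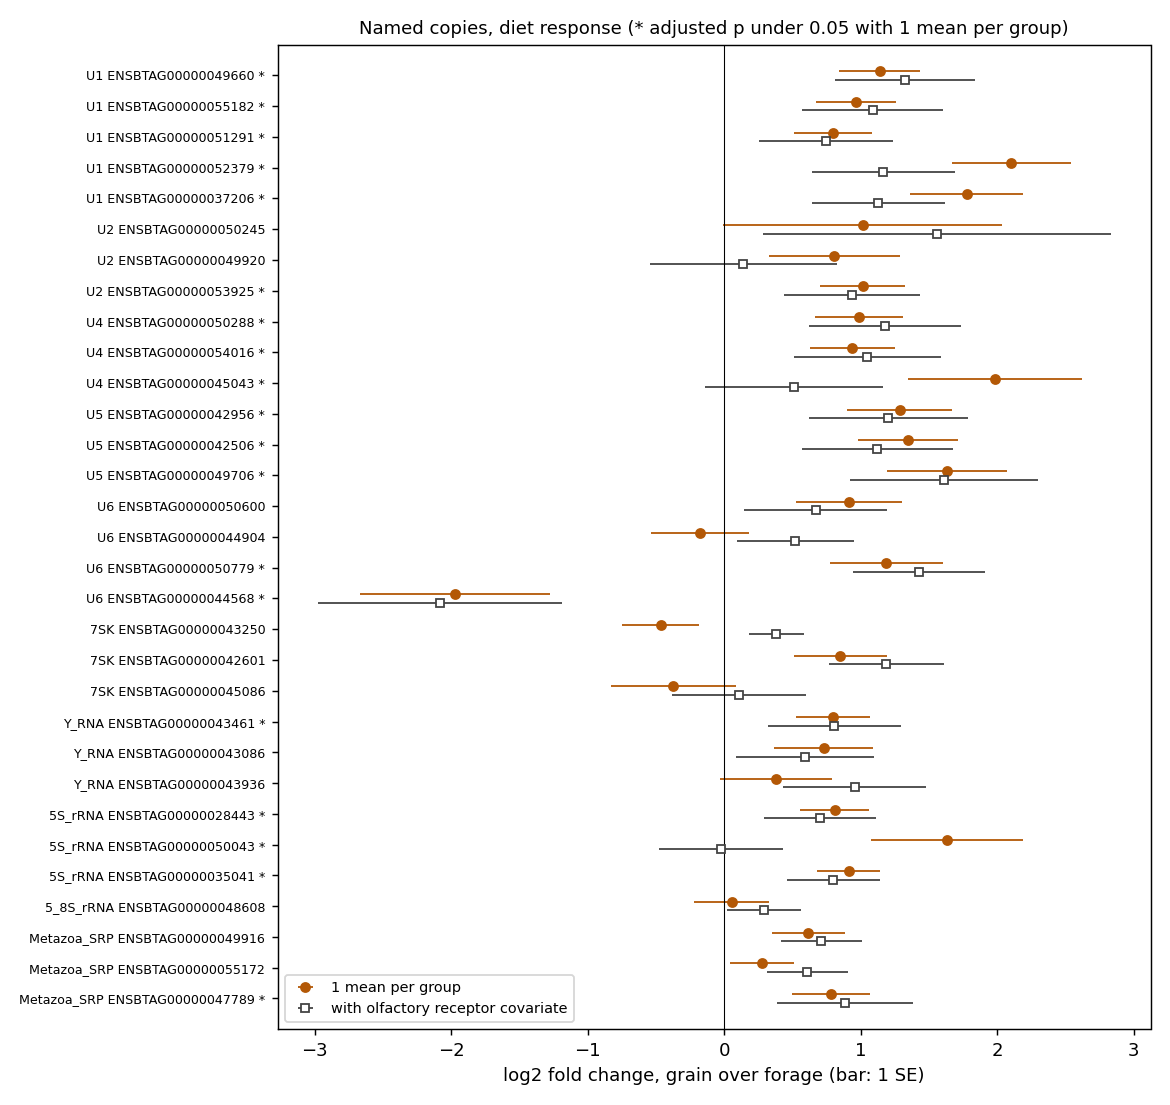
Log2 fold change of grain over forage with 1 SE for the 31 named copies of the diet comparison, in the fit with 1 mean per group (filled) and with the olfactory receptor covariate (open). U1, U4, U5 and signal recognition particle copies with many reads mostly lie at like values in both fits. The signal recognition particle copy ENSBTAG00000055172 moves between 0.28 and 0.61. The 7SK copy ENSBTAG00000043250 moves between −0.47 and 0.38 and the 5S copy ENSBTAG00000050043 between 1.63 and −0.02.

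Some copies were read in certain libraries of a group and nearly absent in others. The leading U2 copy, ENSBTAG00000050245, had 654, 634, 434 and 1067 reads in grain_PHY and 9, 4417, 2, 344 and 718 reads in grain_control libraries. It had 790, 996, 393 and 1024 reads in forage_PHY and 1, 667, 0, 1105 and 500 reads in forage_control libraries. Thus grain_control 1, grain_control 3, forage_control 1 and forage_control 3 were at 1.09 CPM or less and the other 14 libraries at 16.2 CPM or more. The same 4 libraries were the highest of their groups for another U2 copy, ENSBTAG00000049920, with 36.2 and 22.5 CPM in grain_control 1 and 3 and 8.90 and 17.7 CPM in forage_control 1 and 3. The diet difference of ENSBTAG00000050245 was 1.01 ± 1.02 on the log2 scale (adjusted p = 0.414). The libraries near 0 were all of control cows, 2 on each diet, and PHY against control gave 0.42 ± 1.42 on grain and 0.90 ± 1.43 on forage, which did not pass the test (adjusted p = 0.999 and 1).

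A search for such gaps, made after the values were seen, asked for at least 1.5 on the scale of log2(CPM + 0.5) between neighbouring libraries, and 3 members met it. The others were low copies. The U2 copy ENSBTAG00000050664 had 117 reads in grain_control 1 and 36 in forage_control 1, at 14.1 and 2.72 CPM, and at most 0.277 CPM elsewhere. The 5S copy ENSBTAG00000039177 had 95 reads in grain_PHY 4 and 22 in forage_PHY 4, at 9.34 and 1.61 CPM, and at most 0.242 CPM elsewhere. In all 3 copies the libraries that stood apart carried the same numbers on grain as on forage. No label ties a number to a cow, so this is a description of the libraries only. Neither low copy was tested, as both failed the filter.

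**Figure D4:**
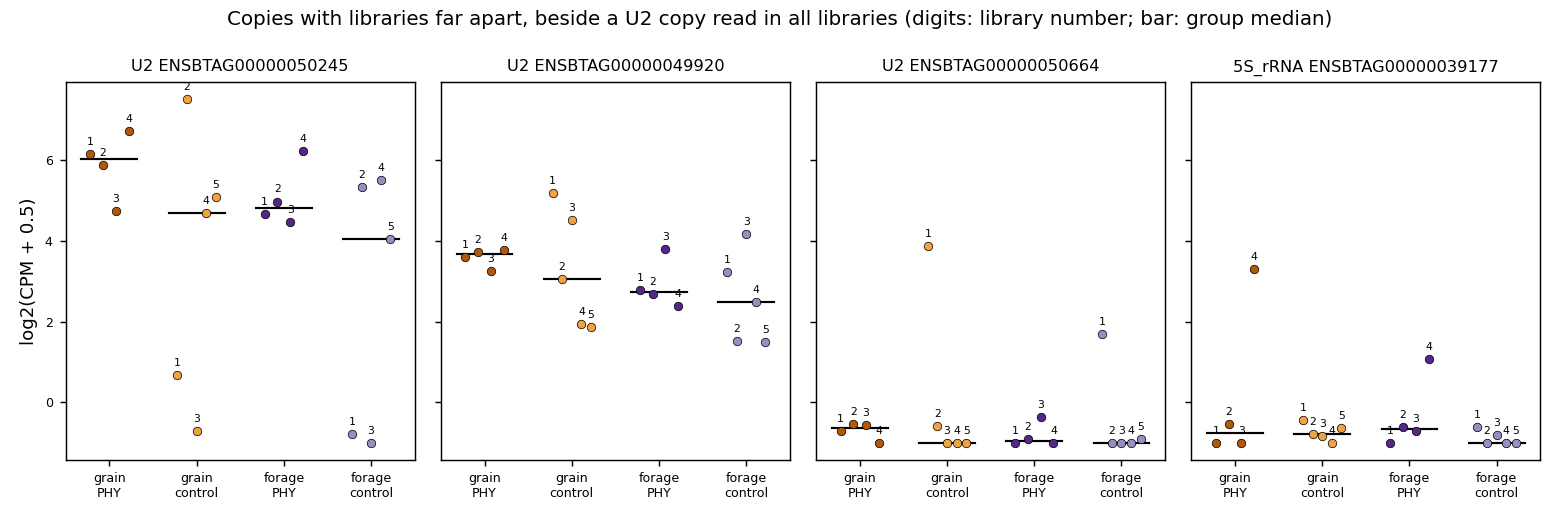
Level of 3 copies with a gap between libraries and of the U2 copy ENSBTAG00000049920, on the scale log2(CPM + 0.5), with library numbers beside the points and a bar at the group median. Libraries 1 and 3 of grain_control and of forage_control sit at the bottom for ENSBTAG00000050245 and at the top of their groups for ENSBTAG00000049920.

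Within single arms the diet difference had the same sign for most copies but no calls. In PHY cows the grain against forage test called 0 members and 0% of all genes, with 78 members at an unadjusted p under 0.05, a median of 1.10 and a smallest adjusted p of 0.0696. DESeq2 called 62 members and limma voom 46 in this comparison, and a fit of the 2 PHY groups alone called 44. In control cows the same test called 0 members and 0% of all genes, with 51 members at an unadjusted p under 0.05, all higher on grain, a median of 0.85 and a smallest adjusted p of 0.432. Over all genes 2518 of 22202 had an unadjusted p under 0.05 in control cows. DESeq2 and limma voom also called 0 members there. The difference between these responses, PHY minus control, was called for 0 members and 0% of all genes, with a member median of 0.24. An unadjusted p under 0.05 was found for 442 of 22202 genes and 1 member. That member was the U6 copy ENSBTAG00000042548, with 13, 63, 4 and 2 reads in grain_PHY, 7, 14, 13, 8 and 9 in grain_control, 0, 1, 2 and 0 in forage_PHY and 1, 13, 13, 1 and 0 in forage_control libraries. Most of its grain_PHY reads came from grain_PHY 2.

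PHY against control gave no calls on either diet. On grain 0 members and 0% of all genes were called, with 3 members at an unadjusted p under 0.05, a median log2 fold change of 0.11 and a smallest adjusted p of 0.999. On forage 0 members and 0% of all genes were called, with 4 members at an unadjusted p under 0.05, all lower with PHY, a median of −0.14 and a smallest adjusted p of 1. Over all 22202 genes 571 had an unadjusted p under 0.05 on grain and 356 on forage. DESeq2 and limma voom called 0 members in both comparisons. By edgeR's test the smallest p on grain belonged to the U6 copies ENSBTAG00000042521, lower with PHY at −2.41 ± 1.03 (adjusted p = 0.999), and ENSBTAG00000054802, higher at 1.81 ± 0.85 (adjusted p = 0.999). On forage it belonged to the U6 copy ENSBTAG00000042164 at −3.34 ± 1.27 (adjusted p = 1) and, in the other direction, to the 5S copy ENSBTAG00000044472 at 1.35 ± 0.87 (adjusted p = 1). All 4 are low copies of 137 to 251 reads in all. The leading U1 copy differed by −0.06 ± 0.42 between grain_PHY and grain_control and by 0.29 ± 0.42 between forage_PHY and forage_control.

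By edgeR's test with 1 mean per group no gene on the lists of proteins that bind or make these RNAs was called as higher on grain. DESeq2 called 1 gene of small nuclear RNA transcription and RNA polymerase III as higher. Of 45 tested proteins of the major spliceosomal particles 24 fell on grain and 0 rose, with a median of −0.51. Falls were also common among all genes above a log2 CPM of 4. In the band of 4 to 6, 15 of the 25 list genes there fell, beside 1728 of 4284 genes. Above 6, 4 of 7 list genes fell, beside 676 of 1312 genes. Between 2 and 4 falls were less common among all genes, with 5 of 13 list genes beside 644 of 5721 genes. Without grain_PHY 1, or without the 3 smallest libraries, 0 of the 45 were called, with medians of −0.38 and −0.27. With the olfactory receptor covariate 0 were called and the median was 0.04. SNRPN, a core protein of the particles, averaged 22.2 ± 5.39 CPM on grain and 32.6 ± 4.81 CPM on forage (SD, n = 9 each), a log2 fold change of −0.56 ± 0.15 (adjusted p = 0.0219). SF3B6, a part of the U2 particle, gave −0.72 ± 0.21 (adjusted p = 0.0228), and LSM6, a part of the ring on U6, gave −0.73 ± 0.22 (adjusted p = 0.0251). Of 7 proteins of the minor spliceosome 3 fell, among them ZCRB1 at −0.57 ± 0.16 (adjusted p = 0.0219). MEPCE, which caps 7SK, and CDK9, the kinase of P-TEFb, were the 2 falls among 7 genes of the 7SK particle, at −0.60 ± 0.15 (adjusted p = 0.0202) and −0.56 ± 0.17 (adjusted p = 0.0263). SSB, the La protein, fell by 0.63 on the log2 scale (adjusted p = 0.0287) and was 1 of 2 genes in the Y RNA list. SRP68 was the 1 fall among 8 genes of the signal recognition particle and its receptor, at −0.51 ± 0.17 (adjusted p = 0.0317). RRS1 was the 1 fall among 5 genes of the 5S particle, at −0.58 ± 0.21 (adjusted p = 0.0448). It is known from yeast to help place 5S RNA in the ribosome. The falls in the 7SK, Y RNA, signal recognition particle and 5S lists were all at log2 CPM 4 to 6. In that band 1728 of 4284 genes fell. Of the 3 minor spliceosome falls 2 were between 2 and 4 and 1 between 4 and 6.

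Genes for making the RNAs had smaller median changes than the proteins of the major spliceosomal particles, but more of them were at lower levels. Of 31 genes of small nuclear RNA transcription and RNA polymerase III 4 fell and 0 rose, with a median of −0.25. They included MAF1, the repressor of that polymerase, at −0.50 ± 0.15 (adjusted p = 0.0267) and POLR3A, its largest subunit, at −0.40 ± 0.14 (adjusted p = 0.0357). Of 38 genes of maturation and assembly 6 fell and 0 rose, with a median of −0.26, among them PHAX, the export adaptor of the small nuclear RNAs, at −0.56 ± 0.20 (adjusted p = 0.039). Over all genes tested 13.8% fell. Between a log2 CPM of 4 and 6, 4 of 12 transcription and 3 of 18 maturation genes fell, beside 1728 of 4284 genes. Between 2 and 4, 0 of 17 and 3 of 19 fell, beside 644 of 5721 genes. The falls in both lists were in the direction of the median of all genes of like level. That median was −0.12 between a log2 CPM of 2 and 4 and −0.41 between 4 and 6. Between 2 and 4 lay 17 of the 31 transcription and 19 of the 38 maturation genes, beside 13 of 45 major spliceosome proteins. With the olfactory receptor covariate no list had a call, and the list medians lay between −0.11 for the minor spliceosome and 0.20 for the Y RNA list.

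**Figure D5:**
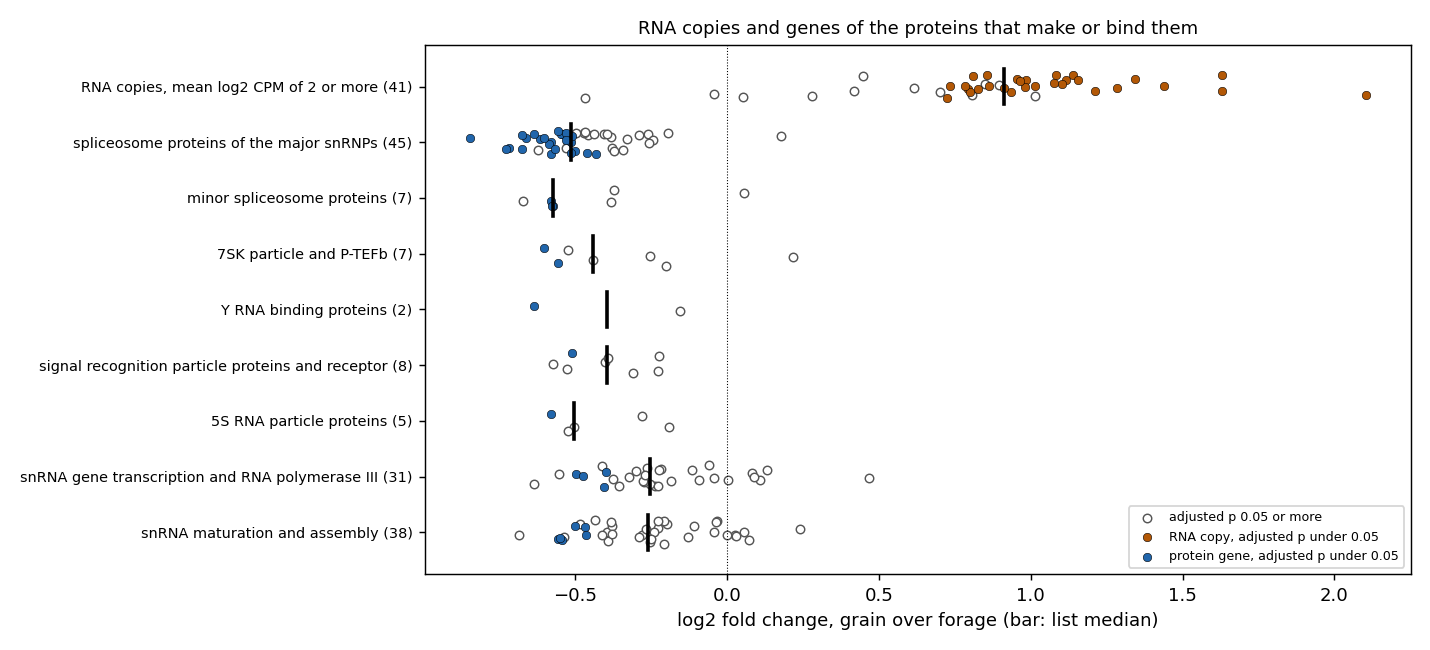
Log2 fold change of grain over forage for the 41 RNA copies above a mean log2 CPM of 2 and for the genes of each protein list, with a bar at the list median and filled points for an adjusted p under 0.05. The copies centre on 0.91 and the 45 spliceosome proteins on −0.51.

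Small nucleolar RNAs, which guide the modification of ribosomal and small nuclear RNA, were the nearest class to compare. Of 165 tested genes with such a name 33 rose and 0 fell, with a median of 0.64. That share of rises was near the 18.1% of all genes. The 68 of them above a log2 CPM of 2 had 25 rises and a median of 0.78. With the olfactory receptor covariate their median was 0.83 and all 68 were above 0. Of all genes 11.5% rose between a log2 CPM of 2 and 4, 0.98% between 4 and 6 and 1.22% above 6. MicroRNA names had 7 rises and 5 falls among 108 tested genes and a median of 0.08.

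These values rest on 18 libraries, and CPM is a share of a library, so a higher share of an RNA does not say that there was more of it per cell. The p-values treat libraries of the same cows as independent. Leaving out single libraries moved the count of called members between 0 and 98, with 0 without grain_PHY 1, 18 without forage_PHY 1, 28 without grain_control 1 and 31 without forage_PHY 2. No sequence is shown, since the files used here hold none for these copies.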

How the data were processed

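Total RNA of rumen papillae was sequenced after library making from 10 ng with a stranded total RNA kit, per the labels' protocols. The authors deposited whole-number counts per Ensembl gene and a table of normalized signal, the counts divided by size factors, per the file headers and values. Demultiplexing with bcl2fastq 2.20, normalization with DESeq2 and the build bosTau9 are given in the submitters' processing notes. Alignment, counting, strand handling and the release of the annotation are not given in the sources. The counts alone were used, all 18 columns were matched to a sample, and totals were 3953060 to 34471682 reads.

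All genes were fitted with edgeR 4.0.16 in R 4.3.3 (robust quasi-likelihood, TMM, filterByExpr by group, 1 mean per group), with Benjamini-Hochberg adjustment over the 22202 genes tested. The coefficient of variation between libraries was 51.4%. The 6 contrasts were grain against forage over both arms and in each arm, PHY against control on each diet, and the difference of the diet responses. Named were the 3 copies of each class with the most reads, the 4 largest called rises and falls among copies averaging 5 CPM or more on either side, the copy with the smallest p in each direction where none was called, and up to 4 called genes of each protein list. ENSBTAG00000044568, the 1 called fall, and the copies with gaps between libraries were named after their values were seen. Members and lists were chosen with earlier results of these data known. The procedure was tested on simulated independent counts with planted changes. These had no factor shared within a library beyond its size and no repeated cows. They therefore do not test how the calls depend on single libraries. Alternatives were DESeq2 1.42.0, limma 3.58.1 voom, other size factors, filters, thinning, the olfactory receptor covariate and left-out libraries.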

Additional observations from a re-analysis of the deposited data

Results flagged for a closer look

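Within groups of 4 or 5 libraries, 18 of 192 tested groups had a highest or lowest library far from the others by Dixon's ratio. Chance alone would flag about 5 percent of groups drawn from a normal distribution. The ratio was taken on CPM without logs, so that rate need not hold here. The library forage_control 4 accounted for 7 of them, in each case as the highest of its group. It had a U4 sum of 252.6 CPM, and 153 and 99.3 CPM at the U4 copies ENSBTAG00000050288 and ENSBTAG00000054016. It also had 83.5 CPM at the U1 copy ENSBTAG00000055182, 9.28 CPM at the U2 copy ENSBTAG00000053925, and 4.91 and 5.77 CPM at the Y_RNA copies ENSBTAG00000043086 and ENSBTAG00000043936. The library forage_PHY 4 accounted for 4, all of 5S_rRNA and all as the highest, with a class sum of 181.7 CPM and 69.8, 22.5 and 13.02 CPM at ENSBTAG00000028443, ENSBTAG00000050043 and ENSBTAG00000035041.

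The other libraries that stood apart were single cases. ENSBTAG00000050043 was high in grain_PHY 1 at 199.5 CPM and in forage_control 2 at 71.5 CPM. The U2 copy ENSBTAG00000050245 was high in grain_control 2 at 181.7 CPM, and ENSBTAG00000053925 was low in grain_PHY 3 at 5.23 CPM. The U6 copy ENSBTAG00000042521 was high in grain_control 1 at 2.54 CPM, and ENSBTAG00000050600 was low in forage_PHY 2 at 1.71 CPM. The 7SK copy ENSBTAG00000045086 was high in forage_PHY 3 at 2.22 CPM. The copies of 1 class share sequence and possibly reads, so their flags are not independent.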

How the results depend on the processing

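For grain against forage over both arms, where 80 members were called, DESeq2 called 126, thinning to the lowest total 7, the olfactory receptor covariate 0 and leaving out the 3 smallest libraries 0. Over all genes DESeq2 called 6142 of 22202 as higher and 2948 as lower, and thinning 109 and 67 of 16486. The covariate and leaving out the 3 smallest libraries gave 0 there too. Leaving out 1 library gave 0 to 98 called members, and besides those named above the count was 46 without grain_PHY 2, 52 without forage_PHY 3, 48 without forage_control 1 and 51 without forage_control 5. In PHY cows, with 0 called, DESeq2 called 62, limma voom 46 and a fit of the groups compared 44, and leaving out 1 library gave 0 to 9 (7 without grain_control 1, 9 without forage_control 5). Calls over all genes were not counted for these fits in PHY cows. The other 4 comparisons stayed at 0 under all alternatives run. All 230 alternative class ratios moved by no more than the class's pooled SD within groups on the log2 scale. Direction was not part of that check. The log2 ratio of 5_8S_rRNA, near 0, ran from −0.116 to 0.179 as single libraries were left out. The cause of these changes was not tested, except that thinning left 89 members tested.

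Signs turned in 11 fits of named copies. With the covariate, the 7SK copies ENSBTAG00000043250 and ENSBTAG00000045086 gave 0.38 and 0.11, the U6 copy ENSBTAG00000044904 gave 0.52 and the 5S copy ENSBTAG00000050043 gave −0.02. ENSBTAG00000044904 gave 0.02 without the 3 smallest libraries, and −0.324 to 0.014 as single libraries were left out, with the highest value without grain_PHY 1. The 5_8S_rRNA copy gave −0.059 with voom and −0.067 to 0.208 as single libraries were left out, below 0 without grain_PHY 2, grain_PHY 4, forage_PHY 1 or forage_control 5. Of the other fits for diet, those of called copies kept the call in 354 and lost it in 173, and those of copies not called stayed so in 311 and gained a call in 14.

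Over all genes the median was 0.20 by TMM and 0.29 by the size factors of DESeq2. No paired analysis was possible because libraries cannot be assigned to cows and their numbers only follow the order of deposit. Most tested U6 copies averaged under 1 CPM.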
